A study of Mus musculus with 7 samples.

Results

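The histone deacetylases are the zinc-dependent enzymes that remove acetyl groups from lysines of histones and other proteins. The gene list searched held 11 of them, and 10 were found by name among the 13376 rows of the expression table: Hdac1, Hdac2, Hdac3, Hdac4, Hdac5, Hdac6, Hdac7, Hdac8, Hdac10 and Hdac11. Hdac9 has no row. The family was selected on gene names, but with the difference of Hdac11 between the siRNA groups already known, so the values of Hdac11 in that comparison are given as a description without a test, and the family's counts include a gene known to differ. The lowest mean levels among the members were 4.22 FPKM (Hdac11) and 4.55 FPKM (Hdac8), and the table lists rows whose highest value reaches 0.307 FPKM, so the members lie well inside it. All 10 also passed the filter for testing, a mean of 1 FPKM or more over the 4 libraries. FPKM is the number of fragments per kilobase of transcript, scaled to the mapped fragments of the library, and it allows levels of different genes to be compared.

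The data come from C2C12, a line of mouse myoblasts that divide as precursors and can form muscle fibres in culture. One experiment used proliferating cells that received either a scrambled siRNA (2 libraries) or an siRNA against the long noncoding RNA lnc-31 (2 libraries), with no other allele or agent named. In the other, RNA was recovered from C2C12 cells with biotinylated antisense probes, 1 library with lnc-31 probes and 1 with lacZ probes, which match a bacterial gene and served as background. Whether the paired libraries of a group are separate cultures is not stated, and p-values then reflect only the spread among these 4 libraries, which may be technical. The number of reads behind each FPKM value is unknown, and with bulk RNA, fewer cells of a type and less RNA per cell cannot be told apart. No row is named lnc-31. The row that carries Mir31, the microRNA gene at that locus, stood at 13.4 and 15.6 FPKM with scrambled siRNA and at 12.1 and 14.1 FPKM in the libraries labelled lnc-31 siRNA. These values overlap, so the row did not show a fall of the targeted RNA, and each direction given here is that of the labelled libraries. The library lnc-31 siRNA 1 stood apart on the first principal component (41.4% of the variance, score 39.1, against -16.3 to -10.4 for the other 3).

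Mammalian deacetylases fall into classes by sequence. Class I enzymes (Hdac1, Hdac2, Hdac3 and Hdac8) are mostly nuclear, and Hdac1, Hdac2 and Hdac3 act inside large corepressor complexes. Class IIa enzymes (Hdac4, Hdac5, Hdac7 and Hdac9) bind MEF2 transcription factors and move between nucleus and cytoplasm when kinases phosphorylate them, and in muscle they are known as repressors of MEF2-driven differentiation genes. Class IIb holds Hdac6, a cytoplasmic tubulin deacetylase, and Hdac10, a polyamine deacetylase, and Hdac11 alone forms class IV and is known to remove fatty acyl groups from lysine.

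RefSeq promoter windows, from 250 bases before to 50 after an annotated start on GRCm38.p6 (mm10 coordinates), matched 8 of the 11 genes: Hdac2, Hdac4, Hdac5, Hdac6, Hdac7, Hdac8, Hdac9 and Hdac11. The 250 bases before the start are shown for 3 of them. Hdac11 is shown as the member with the largest relative difference (chr6:91156565-91156814, plus strand), with capitals on each E-box, the site type read by MyoD and myogenin. Hdac2 is shown as the most abundant member (chr10:36974294-36974543, plus strand), with capitals on the GC box. Hdac5 is shown as a class IIa member (chr11:102230173-102230422, minus strand), with capitals on a match to the MEF2 motif.
Hdac11: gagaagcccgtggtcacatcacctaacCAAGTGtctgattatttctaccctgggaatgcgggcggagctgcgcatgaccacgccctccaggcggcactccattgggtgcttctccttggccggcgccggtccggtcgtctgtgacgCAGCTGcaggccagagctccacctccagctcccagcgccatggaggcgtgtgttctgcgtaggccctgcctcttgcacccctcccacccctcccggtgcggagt
Hdac2: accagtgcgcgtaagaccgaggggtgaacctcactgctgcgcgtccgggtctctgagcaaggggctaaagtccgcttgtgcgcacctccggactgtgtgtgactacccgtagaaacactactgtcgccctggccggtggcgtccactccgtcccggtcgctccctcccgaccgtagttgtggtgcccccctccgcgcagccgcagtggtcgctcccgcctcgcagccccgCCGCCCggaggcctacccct
Hdac5: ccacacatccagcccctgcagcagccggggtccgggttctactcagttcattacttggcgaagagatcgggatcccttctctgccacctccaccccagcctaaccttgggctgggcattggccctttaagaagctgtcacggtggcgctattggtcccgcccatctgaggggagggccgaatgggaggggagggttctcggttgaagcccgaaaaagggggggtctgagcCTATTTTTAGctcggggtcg

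E-boxes were searched as CANNTG, which reads the same on both strands, and GC boxes as GGGCGG on both strands. The Hdac11 window held 2 E-boxes, which began 223 and 104 bases before the start (positions -223 and -104). The nearer one is the CAGCTG form. Of 32851 promoter windows, 72.3% held an E-box and 16.3% a CAGCTG, so the first is common and the second is not rare. E-boxes were also found in the windows of Hdac5 and Hdac6 (2 each), Hdac8 (3) and Hdac9 (2 and 3). The 4 windows of Hdac7 held 0, 1, 0 and 2, and those of Hdac2 and Hdac4 held 0. Among the other members, CAGCTG was found in both windows of Hdac9, which has no row in the table, and in 1 of 4 windows of Hdac7, whose level hardly differed between groups. The MEF2 motif was present in the Hdac5 window at position -20 and in no other member's window, and 3.19% of all windows held it. The GC box of Hdac2 also began at position -20, and 35.7% of windows had one. The windows of Hdac4 and Hdac6 held 5 GC boxes each. The Hdac2 window was rich in CpG dinucleotides, with 36 against a median of 7 over all windows, while Hdac11 had 22 and Hdac8 had 6. It was not alone, as Hdac4 had 32 and the 4 windows of Hdac7 had 31, 6, 35 and 5. The RefSeq gene spans, which cover all transcripts of a gene, begin inside the stretches shown for Hdac11 and Hdac2. That of Hdac11 begins at position 91156670, between its 2 E-boxes, so the CAGCTG lies inside the annotated gene. That of Hdac2 begins at position 36974297, so nearly all of its stretch, the GC box included, lies inside the annotated gene. These matches describe the sequence only.

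The 10 messages covered a wide range of levels. Hdac2 was the most abundant, at 92.8 and 95.1 FPKM with scrambled siRNA and 95.4 and 102.4 FPKM with lnc-31 siRNA. Hdac1, its close paralog and partner in the same complexes, stood at 79.6 and 80.7 FPKM and at 76.4 and 81.1 FPKM. Hdac3, the catalytic subunit of the NCoR corepressor, came next, at 49.98 and 51.8 FPKM and at 45.0 and 48.4 FPKM. The means over the 4 libraries then ran from Hdac7 (24.4 FPKM) through Hdac5 (22.2), Hdac10 (9.33), Hdac6 (8.90), Hdac4 (8.16) and Hdac8 (4.55) to Hdac11 (4.22). Of the 9 neighbouring pairs in this order, 3 had ranges over the 4 libraries that overlap: Hdac10 with Hdac6, Hdac6 with Hdac4, and Hdac8 with Hdac11. These overlaps pool both siRNA groups. With scrambled siRNA alone, Hdac10 lay above Hdac6, Hdac6 above Hdac4 and Hdac8 above Hdac11 in both libraries. With lnc-31 siRNA, Hdac10 and Hdac6 overlapped, as did Hdac6 and Hdac4, and Hdac11 lay above Hdac8. Hdac2 lay at percentile 92.9 of all rows by mean level and Hdac11 at percentile 30.2.

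**Figure D1:**
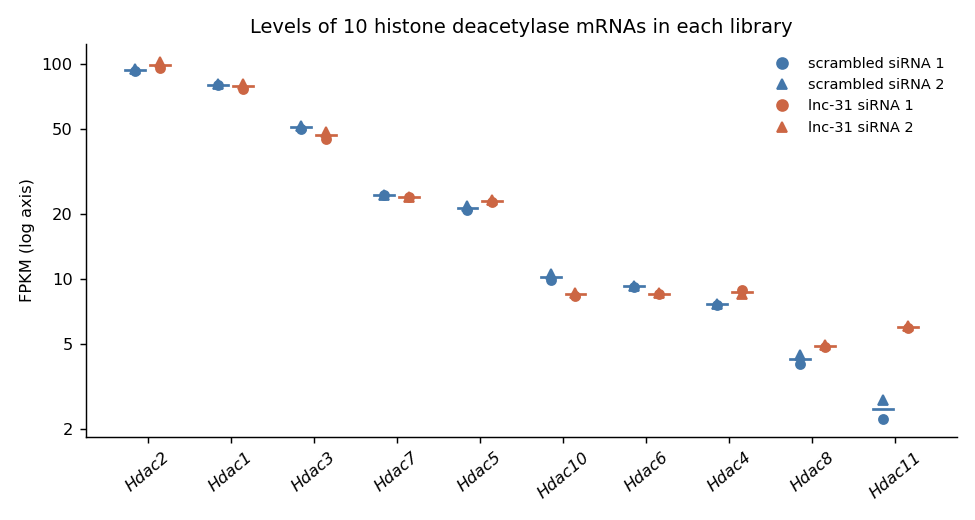
FPKM of each deacetylase mRNA on a log axis, with 1 point per library (circle, replicate 1; triangle, replicate 2) and a short line at each group mean, ordered by the mean over 4 libraries. The points of 9 genes lie close together across groups, while Hdac11 stands at 2.23 and 2.73 FPKM with scrambled siRNA and at 5.90 and 6.02 FPKM with lnc-31 siRNA.

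Hdac11 was the member with the largest relative difference. In FPKM, the group means of Hdac2 (4.93) and Hdac3 (-4.17) differed by more in size than those of Hdac11 (3.48). Hdac11 was at 2.23 and 2.73 FPKM with scrambled siRNA, the lowest of the 10 in both libraries. In the libraries labelled lnc-31 siRNA it was at 5.90 and 6.02 FPKM, above Hdac8. The group means were 2.48 ± 0.356 and 5.96 ± 0.0832 FPKM (SD, n = 2 each), a ratio of 2.40. On the log2(FPKM + 1) scale, where changes of low genes come out too small, the log2 fold change was 1.003, rank 30 from the top of 11500 tested rows. This rank and the values that follow are a description only, as the difference was known when the family was chosen. With a pseudocount of 0.1 in place of 1 the log2 fold change was 1.24. Without lnc-31 siRNA 1, the library that stands apart, it was 1.01, and over each of the 4 libraries left out in turn it ran from 0.90 to 1.11.

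None of the other 9 members passed the test (limma, Benjamini-Hochberg adjusted p under 0.05 over all 11500 rows), and 2 of the 9 (Hdac4 and Hdac10) had an unadjusted p under 0.05, which 30.9% of all rows had. Counting Hdac11, whose call the choice of the family fixed, 1 of 10 members was called, from which nothing is read. Limma called 12.4% of all rows, 5.64% higher and 6.78% lower. The median log2 fold change of the 9 was -0.02, against -0.01 over all rows. The groups did not overlap in 8 of the 9, and in 60.2% of all rows. Their fold changes lay between -0.24 (Hdac10) and 0.17 (Hdac4), and 2074 of all rows had an absolute value at least as large as that of Hdac10. A p that misses the threshold does not show equal levels, so the 95% intervals are given with the classes below.

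**Figure D2:**
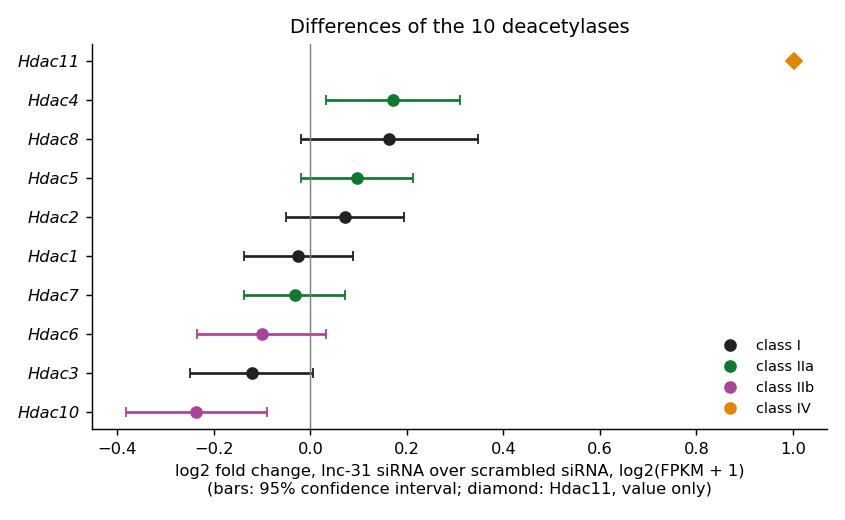
Log2 fold change of each deacetylase, lnc-31 siRNA over scrambled siRNA, on the log2(FPKM + 1) scale, with the 95% confidence interval from limma for 9 genes and the value alone (diamond) for Hdac11. Hdac11 stands at 1.003, and the other values lie between -0.24 and 0.17, with colours for the classes, and only the intervals of Hdac4 (above 0) and Hdac10 (below 0) leave out 0.

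In class IIb both members had lower levels with lnc-31 siRNA, though neither passed the test. Hdac10 stood at 9.85 and 10.5 FPKM with scrambled siRNA and at 8.38 and 8.59 FPKM with lnc-31 siRNA. Its groups did not overlap, but its log2 fold change of -0.24 (limma, SE 0.059, 95% interval -0.38 to -0.09) had an adjusted p of 0.057. It did pass under quantile normalization (0.036), median of ratios scaling (0.036) and a filter at a mean of 5 FPKM (0.049), and with 1 library left out its adjusted p ran from 0.11 to 0.19. Hdac6 was at 9.20 and 9.30 FPKM and at 8.48 and 8.63 FPKM, again without overlap, with a log2 fold change of -0.10 (95% interval -0.23 to 0.03, limma adjusted p = 0.27).

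In class IIa the estimates of the 3 measured genes had both signs, and none passed the test. Hdac4, the best studied of them in muscle, stood at 7.59 and 7.64 FPKM with scrambled siRNA and at 8.85 and 8.55 FPKM with lnc-31 siRNA. The groups were apart and the log2 fold change was 0.17 (limma, SE 0.056, 95% interval 0.03 to 0.31), with an adjusted p of 0.11. Hdac5, its near relative, was at 21.0 and 21.8 FPKM and at 22.7 and 23.2 FPKM (log2 fold change 0.10, 95% interval -0.02 to 0.21, limma adjusted p = 0.23). Hdac7 was nearly flat, at 24.7 and 24.6 FPKM and at 24.2 and 24.0 FPKM (log2 fold change -0.03, 95% interval -0.14 to 0.07, limma adjusted p = 0.65).

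In class I, Hdac1 was the only member of the family whose groups overlapped, with a log2 fold change of -0.02 (95% interval -0.14 to 0.09, limma adjusted p = 0.76). The value for Hdac2 was 0.07 (95% interval -0.05 to 0.19, adjusted p = 0.37) and that for Hdac3 was -0.12 (95% interval -0.25 to 0.01, adjusted p = 0.18). Hdac8, an enzyme that deacetylates the cohesin subunit SMC3, was at 4.02 and 4.45 FPKM and at 4.80 and 4.92 FPKM (log2 fold change 0.16, 95% interval -0.02 to 0.35, limma adjusted p = 0.20). For these 4 genes the intervals reached at most 0.35 in size on the log2 scale.

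Summed over the 10 genes, deacetylase mRNA came to 304.8 ± 5.49 FPKM with scrambled siRNA and 307.9 ± 11.1 FPKM with lnc-31 siRNA (SD, n = 2 each), a difference smaller than the spread. Class I made up 75.2% and 75.2% of it in the scrambled siRNA libraries and 73.8% and 74.98% in the others. Class IIa held 17.7% and 17.5%, then 18.6% and 17.7%. The share of class IIb was 6.33% and 6.42% with scrambled siRNA and 5.62% and 5.45% with lnc-31 siRNA. Hdac11 contributed 0.741% and 0.886% with scrambled siRNA and 1.97% and 1.91% with lnc-31 siRNA. Its own level thus more than doubled while it stayed a small part of the family's mRNA. These shares describe mRNA and not enzyme activity, and they were not tested.

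**Figure D3:**
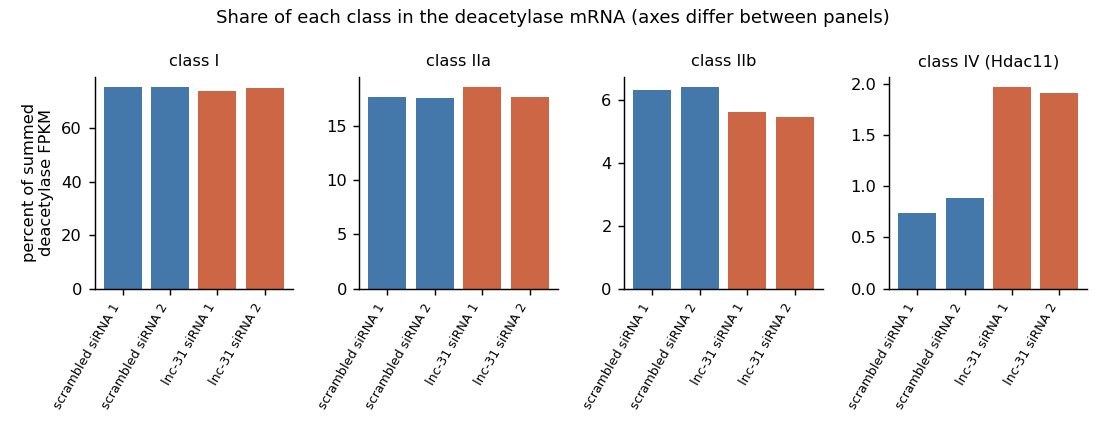
Percent of the summed FPKM of the 10 deacetylases that each class holds, 1 bar per library, with an axis from 0 in each panel. Class I holds 73.8% to 75.2% in every library, class IIb is lower in both lnc-31 siRNA libraries, and the Hdac11 panel goes from 0.741% and 0.886% to 1.97% and 1.91%.

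Class I enzymes work in complexes, and 5 of 37 different tested corepressor genes rose while none fell (median log2 fold change 0.02), next to the 5.64% of all rows that rose. Leaving out scrambled siRNA library 1, then 2, then lnc-31 siRNA library 1, then 2, gave 1, 2, 2 and 1 of the 37 higher. The CoREST complex, which pairs Hdac1 or Hdac2 with the histone demethylase Kdm1a, held 3 of the 5, out of 9 tested genes (median 0.10). Its scaffold Rcor1 stood at 13.6 and 13.9 FPKM with scrambled siRNA and at 19.6 and 19.0 FPKM with lnc-31 siRNA. The groups lay far apart for their spread, and the log2 fold change was 0.46 (limma, SE 0.048, adjusted p = 0.0080). Its call held under each alternative run, with adjusted p from 0.029 to 0.043 when 1 library was left out. Phf21a, the subunit that reads unmethylated histone H3, was at 9.56 and 11.7 FPKM and at 16.5 and 15.5 FPKM (limma estimate 0.55 on the log2 scale, adjusted p = 0.025). That call was lost without scrambled siRNA 1 (0.063) and also without either lnc-31 siRNA library (0.074 for library 1, 0.062 for library 2). Zmym2, a zinc finger subunit, rose from 11.5 ± 0.157 to 13.7 ± 0.235 FPKM (adjusted p = 0.039), a call lost with any 1 library left out (0.11 to 0.14). Kdm1a itself was at 51.6 ± 0.309 and 55.3 ± 0.519 FPKM and did not pass (adjusted p = 0.16). Of the 9 genes, 2 rose without scrambled siRNA 2 and 1 without any other single library.

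Of the other corepressors, NuRD had 1 of 11 genes higher and the NCoR complex 1 of 4, next to 5.64% of all rows. Chd3, a chromatin remodelling ATPase of NuRD, rose from 83.9 ± 1.36 to 95.7 ± 0.801 FPKM (limma estimate 0.19 on the log2 scale, adjusted p = 0.037). Tbl1xr1, which exchanges NCoR for coactivators, rose from 9.42 ± 0.0300 to 11.3 ± 0.0025 FPKM (limma estimate 0.24 on the log2 scale, adjusted p = 0.041). Both calls were lost with any 1 library left out (adjusted p from 0.11 to 0.16). Limma called 0 of 15 SIN3 complex genes, 1 of which (Sap30l) had an unadjusted p under 0.05. Without lnc-31 siRNA 1, the library that stands apart, 1 of the 15 was called higher: Sap30 was estimated at 0.47 on the log2 scale (adjusted p = 0.029), against 0.26 (0.24) with all libraries. Ncor1, a partner of Hdac3, did not pass (log2 fold change -0.05, adjusted p = 0.41).

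The enzymes that oppose deacetylases, the histone acetyltransferases, had 2 of 14 genes lower and none higher (median log2 fold change 0.01). Among all rows, 6.78% were called lower and 5.64% higher, and nothing is read from the count. Hat1, which acetylates newly made histone H4, stood at 87.7 and 88.3 FPKM with scrambled siRNA and at 70.6 and 71.7 FPKM with lnc-31 siRNA (log2 fold change -0.30, limma adjusted p = 0.012). The groups lay far apart for their spread. Kat2b, the acetyltransferase PCAF that works with MyoD, was at 8.55 and 8.14 FPKM and at 6.79 and 6.39 FPKM (limma estimate -0.30 on the log2 scale, adjusted p = 0.038). Without scrambled siRNA 1 or 2 neither gene passed (Hat1 0.066 and 0.062, Kat2b 0.14 and 0.091), and without lnc-31 siRNA 1 or 2 only Hat1 did (0.043 each, against 0.080 and 0.14 for Kat2b). Limma called 0 of 7 sirtuins, the deacetylases that use NAD in place of zinc. The 2 at an unadjusted p under 0.05 were Sirt3 and the row that names Sirt7. Sirt3, the mitochondrial one, was at 6.17 ± 0.339 and 7.62 ± 0.843 FPKM (adjusted p = 0.11), and the row of Sirt7 also names Mafg, so its value cannot be assigned. Of 2 BET family readers of acetylated lysine limma called 0, with 1 (Brd2) at an unadjusted p under 0.05.

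Partners of the class IIa enzymes moved in both directions. Among the MEF2 factors, 3 of which were tested, Mef2a rose from 34.4 ± 1.47 to 44.1 ± 2.50 FPKM (limma estimate 0.35 on the log2 scale, adjusted p = 0.022) and Mef2d fell from 21.98 ± 0.689 to 18.2 ± 0.0499 FPKM (limma estimate -0.26 on the log2 scale, adjusted p = 0.028). The row of Mef2b also names 2310045N01Rik. With the libraries left out in the order given for the corepressors, Mef2a had adjusted p = 0.098, 0.058, 0.063 and 0.039, and Mef2d 0.12, 0.074, 0.085 and 0.098. Of 13 tested kinases that phosphorylate class IIa enzymes or act on them, 1 rose, next to the 5.64% of all rows that rose. Sik2, a salt-inducible kinase, was at 5.93 and 6.45 FPKM and at 8.19 and 7.88 FPKM (limma estimate 0.33 on the log2 scale, adjusted p = 0.035; 0.067 to 0.12 with 1 library left out). Its relative Sik1 was at 6.19 and 5.80 FPKM and at 7.495 and 7.32 FPKM, also without overlap, with an adjusted p of 0.0502. Quantile normalization called 3 of the 13 kinases, 2 higher and 1 lower, adding Camk2g (adjusted p = 0.041) and the lower Prkd3 (0.037). It also called more of all 11500 rows, 1928 against 1429 without it. The filter at a mean of 5 FPKM left 10 of these kinases and called 3, adding Sik1 (0.041) and the lower Prkd3 (0.047). Of the 8954 rows left by that filter, 1436 were called. Sik1 also passed with a pseudocount of 0.1 (0.0493) and with a constant prior variance (0.04998). Prkd3 also passed under median of ratios scaling (0.037). The 14-3-3 proteins, which hold phosphorylated class IIa enzymes in the cytoplasm, had 0 of 6 tested genes called by limma and 0 at an unadjusted p under 0.05.

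Of 11 genes for substrates and partners of Hdac6, 1 rose, next to the 5.64% of all rows that rose. Vcp, an ATPase that binds Hdac6 in the handling of ubiquitinated proteins, went from 248.6 ± 7.46 to 291.7 ± 1.95 FPKM (limma estimate 0.23 on the log2 scale, adjusted p = 0.029), a call lost with any 1 library left out (0.081 to 0.14). Tuba1b, an alpha tubulin, stood at 1449 and 1424 FPKM with scrambled siRNA and at 1170 and 857.1 FPKM with lnc-31 siRNA. The lnc-31 siRNA libraries differed widely, and the gene passed when lnc-31 siRNA 1 was left out (log2 fold change -0.74, adjusted p = 0.013, against -0.52 and 0.072 with all libraries). The list for Hdac11 held 3 genes. Shmt2, a mitochondrial serine hydroxymethyltransferase that Hdac11 defattyacylates, was at 114.6 ± 1.20 and 121.2 ± 0.412 FPKM (limma estimate 0.08 on the log2 scale, adjusted p = 0.21). Cdt1, a replication licensing factor reported to bind Hdac11, was at 37.1 ± 0.0912 and 34.0 ± 2.77 FPKM (adjusted p = 0.23). Gmnn, which encodes the Cdt1 inhibitor geminin, fell from 44.6 ± 0.904 to 36.8 ± 2.17 FPKM (limma estimate -0.27 on the log2 scale, adjusted p = 0.034). That call was lost without either scrambled siRNA library (0.11 for library 1, 0.13 for library 2) or lnc-31 siRNA 1 (0.097).

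**Figure D4:**
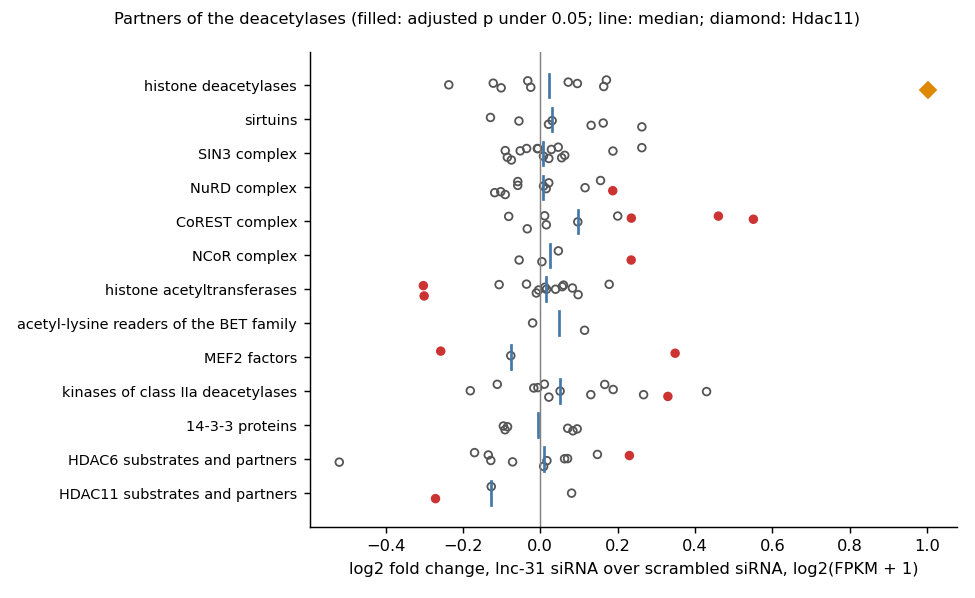
Log2 fold change of each tested gene of the deacetylases and of 12 lists of partners, opposing enzymes and readers, with filled points at a limma adjusted p under 0.05, open points otherwise and a vertical line at each list's median. The diamond is Hdac11 at 1.003, to the right of every other gene shown, and the next highest filled points are Phf21a (0.55) and Rcor1 (0.46) of the CoREST complex.

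The rows most like Hdac11 were found by the distance between log2(FPKM + 1) values centred on each row's mean over the 4 libraries, a description that favours any row with the same group difference. The nearest was Postn, the matrix protein periostin (distance 0.074), at 3.27 and 3.63 FPKM with scrambled siRNA and 7.63 and 8.07 FPKM with lnc-31 siRNA. Next came the muscle myosin light chain Myl1 (0.087), the stress gene Nupr1 (0.094), the matrix proteoglycan Aspn (0.12) and the growth arrest gene Gadd45a (0.12). Each of these 5 had both lnc-31 siRNA libraries above both scrambled siRNA libraries, with log2 fold changes from 0.91 to 1.03. On chromosome 6, RefSeq lists 6 genes within 200 kb of Hdac11, and 2 of them have rows. Fbln2, 37768 bases away, was at 30.2 and 29.2 FPKM and at 30.7 and 29.5 FPKM (limma estimate 0.02 on the log2 scale, adjusted p = 0.83). Iqsec1, 168190 bases away, was at 21.2 ± 1.57 and 23.9 ± 1.87 FPKM (limma estimate 0.17 on the log2 scale, adjusted p = 0.20). Neither neighbour passed the test.

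**Figure D5:**
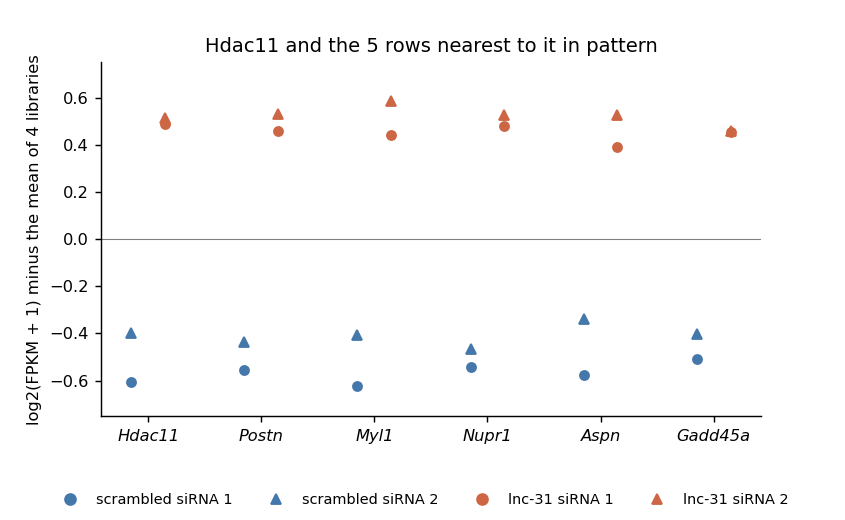
Log2(FPKM + 1) of Hdac11 and the 5 rows nearest to it, minus the mean of each row over the 4 libraries, with 1 point per library. In all 6 rows both scrambled siRNA libraries lie below 0 and both lnc-31 siRNA libraries above it.

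Marker genes were read in the same libraries. The lists were chosen with earlier results of these data known, so their counts are a description and no independent support. Over all rows, limma called 5.64% higher and 6.78% lower. Of 21 muscle differentiation genes, 20 rose and none fell (median log2 fold change 0.73), and their summed level was 487.3 and 555.0 FPKM with scrambled siRNA and 843.0 and 869.9 FPKM with lnc-31 siRNA. Of 20 cell division genes 16 fell (median -0.26), and with 1 library left out, in the order given for the corepressors, 2, 3, 7 and 6 fell. The myoblast markers Myod1 (48.3 ± 1.46 FPKM with scrambled siRNA), Myf5 (38.04 ± 0.777) and desmin (Des, 173.7 ± 2.32) were expressed, while Pax7 has no row. Myf5 was lower with lnc-31 siRNA, at 35.3 ± 0.152 FPKM, without overlap (limma estimate -0.10 on the log2 scale, adjusted p = 0.16). Cdh15 stands both on the myoblast list and on that of the muscle differentiation genes. Of 7 measured myoblast markers 4 rose, and with 1 library left out in that order 1, 1, 2 and 1 did. Of 8 fibroblast markers 5 were measured and 4 rose, among them decorin (Dcn, 7.84 ± 0.650 to 13.9 ± 1.33 FPKM). Without each library in that order 1, 2, 2 and 2 of them rose. Their summed level was 948.5 and 979.4 FPKM, then 1215 and 1180 FPKM, most of it the collagens Col1a1 and Col3a1. Pdgfra stood at 3.21 ± 0.101 and 3.35 ± 0.00600 FPKM, and Lum, Thy1 and Tcf21 have no row. The summed levels of adipocyte, osteoblast, neural and endothelial, epithelial or blood markers reached at most 28.6 FPKM in any library, and limma called 0 of their 9 tested genes (2 at an unadjusted p under 0.05). The part of these markers in the difference of Hdac11 was not tested.

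The pull-down was searched for peaks in the deacetylase genes. The deposited lists hold 596 peaks with lnc-31 probes and 476 with lacZ probes, from 1 library each, so no replicate check is possible. No peak of either list overlapped the gene body of any of the 11 genes, Hdac9 included, by 1 base or more. Among 12323 genes of the expression table with a RefSeq position, 1.78% held a lnc-31 probe peak and 1.68% a lacZ peak, so 0 of 10 is near the background. The gene bodies searched ranged from 5398 bases for Hdac10 (chr15:89123303-89128700) to 266924 bases for Hdac4 (chr1:91928779-92195702) among measured members, with Hdac11 at chr6:91156670-91174692. Among their partners, Arid4a of the SIN3 complex and the acetyltransferase Kat6b held a lnc-31 probe peak and no lacZ peak. Ywhaq and Ywhaz of the 14-3-3 proteins held peaks with both probe sets, and Zmym2, Tbl1x and the kinase Sik3 with lacZ probes only.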

How the data were processed

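RNA was measured by sequencing in 4 siRNA libraries with a stranded mRNA kit. The authors deposited FPKM values. For these the submitters' processing notes name Cuffdiff, TopHat2, BWA, Bowtie2, Trimmomatic and CASAVA and the build mm10, without order or version. The depth per library is unknown, and 0 columns were without a sample. The pull-down peak lists were deposited with a column read as a p-value from its range alone, and no source used here names a peak caller. The input library was not analysed here.

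Rows whose mean reached 1 FPKM (11500 of 13376) were taken as log2(FPKM + 1) and fitted with limma 3.58.1 in R 4.3.3 (two-sided; trended prior with 3.62 degrees of freedom). Benjamini-Hochberg adjustment ran over all rows, at 0.05. Values are given for the deacetylases, the gene lists, the rows nearest to Hdac11, its neighbours and the Mir31 row. The fit was tested on simulated data. Members and lists were chosen with earlier results of these data known. Named genes were all members, up to 4 per list by smallest p, the 5 rows nearest to Hdac11 (names beginning Gm or ending Rik left out), its neighbours within 200 kb, the Mir31 row and any member with a peak. Kdm1a, Myf5, Pdgfra, the genes of partners with peaks and genes without a row were named outside it, after their values were seen. Some genes of the lists are not reported here. Summed levels and shares were not tested. RefSeq on GRCm38.p6 gave gene bodies and promoter windows, and 12023 rows matched a RefSeq symbol. Tables and plots came from Python 3.11.15 (numpy 2.4.6, pandas 2.3.3, matplotlib 3.10.9). Alternatives tried were each library left out, the replicate number as a block, a constant prior variance, quantile normalization or median of ratios scaling, no filter or one at 5 FPKM, pseudocounts of 0.1 and 0.5, and other overlap rules for peaks.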

Additional observations from a re-analysis of the deposited data

How the results depend on the processing

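Hdac11 had log2 fold changes from 0.90 to 1.24 under the 11 alternatives that include it, given as a description, and a filter at a mean of 5 FPKM left it and Hdac8 out. The number of deacetylases called was 2 in place of 1 under quantile normalization and under median of ratios scaling, which added Hdac10. Over all 11500 rows these settings called 1928 and 1910, in place of 1429. Among the deacetylases, the 5 FPKM filter called Hdac10 alone, and it called 1436 of the 8954 rows it left. The call of Hdac11 was fixed by its choice, so the count of deacetylases is no measure of stability. Over all rows 1429 were called, and 316 to 639 with 1 library left out. When 1 library is left out, the lone library of its group is assumed to vary like the other group. Leaving out libraries, chosen after seeing the data for the order of levels, gave 2 or 3 overlapping neighbour pairs. No lnc-31 probe peak fell in a deacetylase gene with bodies widened by 1000 bases. The stricter peak threshold and the 50% overlap rule could only give 0 again. Among partner genes, the constant prior variance ended the calls of Chd3 (adjusted p = 0.078), Vcp (0.058), Gmnn (0.062) and Zmym2 (0.051). It called 3 corepressor genes in place of 5, 2 myoblast markers in place of 4 and 3 fibroblast markers in place of 4. It called 10 cell division genes in place of 16, and over all rows 1080 in place of 1429. With no filter Tbl1xr1 lost its call (0.051) and 1 endothelial, epithelial or blood marker was called higher. With the replicate number as a block, 1613 rows and 1 deacetylase were called, Tbl1xr1 lost its call (adjusted p = 0.052) and Tuba1b (0.047) and Map2 (0.027) gained one. The labels do not say that a number marks a shared batch, and deviations of same-numbered libraries had a correlation of -0.094 across rows. Signs turned, in no case with a passed test, over the 4 fits with 1 library left out, for Hdac1 (-0.067 to 0.018), Gps2 (-0.069 to 0.077), Brd3 (-0.048 to 0.0079), the row of Mef2b (-0.19 to 0.042), Tubb3 (-0.041 to 0.062) and Fbln2 (-0.0098 to 0.046). The cause was not tested. With no read counts, depth sets no interval here, and 2 libraries per group limit the precision.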
